A study of Homo sapiens with 6 samples.

Results

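The autophagy machinery was examined through 39 genes, chosen by symbol for their function, of the 16306 genes in the deposited gene table. They were grouped by role into 5 genes of initiation, 6 of the lipid kinase complex, 6 of lipid transfer and membrane supply, 10 conjugation enzymes and proteases, 5 ATG8 proteins, 5 cargo receptors and 2 genes of late steps. Total RNA of PC9, an established line of human lung adenocarcinoma cells that carries an EGFR mutation, was sequenced after poly-A selection. 3 libraries came from cells with a negative control shRNA (sh-NC) and 3 from cells with an shRNA against RBM10 (shRBM10), an RNA-binding protein that regulates splicing. The sources used here do not say which RBM10 shRNA, which delivery or which time after it applied to these libraries, so the shRBM10 libraries may hold 1 shRNA or several. The names of all 3 shRBM10 columns in the deposited tables have 1 after the letters SH, whereas the titles of the shRBM10 samples have 1, 2 and 3 there, and no source says what this number stands for. The columns match all 3 sh-NC samples by title and shRBM10 replicate 1, which is called library A here, while the other shRBM10 columns match no title and are called libraries B and C. The column names end in the letters A, B and C in both groups, and sh-NC columns A, B and C are replicates 1, 2 and 3. The labels call the samples biosamples and do not say whether they came from separate cultures, so p-values measure the spread between these samples, which may be technical.

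Macroautophagy encloses a portion of cytoplasm in a double membrane, the autophagosome, and delivers it to the lysosome for degradation. The ULK1 kinase complex starts the process and the class III phosphatidylinositol 3-kinase marks the forming membrane. A pair of ubiquitin-like conjugation reactions then attach ATG8 proteins to that membrane, where cargo receptors bind them and bring in ubiquitin-tagged proteins, damaged organelles and bacteria.

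RBM10 itself was measured at 77.9, 64.4 and 79.96 CPM (read counts scaled to the effective library size by the TMM method) in the sh-NC libraries and 29.2, 28.0 and 36.6 in libraries A to C. Its log2 fold change of shRBM10 over sh-NC was −1.24 ± 0.23 (SE, adjusted p = 0.10), with no overlap between the groups. RBM10 did not pass the threshold in edgeR over all libraries, but DESeq2, another count test, called it lower (−1.26, adjusted p = 0.00157), as did edgeR without sh-NC replicate 2 (−1.42, adjusted p = 0.0487), and its adjusted p was 0.00157 to 0.454 over all alternatives. The libraries held between 16606401 and 18864241 counts. The TMM factor was 0.738 for sh-NC replicate 2 and 1.03 to 1.08 for the other libraries, which raises the CPM of that replicate relative to its counts. sh-NC replicate 2 stood apart from the other sh-NC replicates, with a correlation of log2 levels with them of 0.942 and 0.943 against 0.994 between those, and its levels were lower in long transcripts (Spearman rho of the level relative to the mean of all libraries with transcript length −0.611, against 0.174 to 0.183). The level in shRBM10 libraries A and B was higher in genes of low GC content (rho −0.728 and −0.666), whereas rho lay between 0.381 and 0.505 in library C and in sh-NC. The epithelial genes EPCAM, KRT8, KRT18 and KRT19 were abundant in every library (4561 counts or more). CDH1 and EGFR, from the same list, were at 1224 and 1890 counts in sh-NC replicate 2. In the other libraries they were at 3111 to 4373 and 11026 to 14601. The lung epithelial factor NKX2-1 was at 0 to 2 counts, and the 4 retina genes listed in the table at 0 to 3.22. Of the blood genes, the leukocyte gene PTPRC was at 0 to 7 counts and CD68, a lysosomal glycoprotein abundant in macrophages, at 1795 to 2442. Of the endothelial genes, PECAM1 was at 1 to 3 counts, VWF at 11 to 27 with the control shRNA and 5 to 9 with the shRNA against RBM10, and CDH5 at 61 to 177 and 40 to 62. The fibroblast genes COL1A1 and PDGFRB were at 28 to 185 and 8 to 26 counts, and any part of such cells in the results was not tested. In bulk RNA, a lower level in every cell and a loss in a portion of the cells cannot be told apart.

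The cargo receptors and the lipid kinase complex had the highest median log2 fold changes of all roles, 0.87 and 0.60, while no member passed the threshold set for a call. With the GC dependence of each library removed, the 2 genes of late steps came first (0.60), before the cargo receptors (0.54) and the lipid kinase complex (0.39). Of the 39 members 38 were tested, since MAP1LC3A was at 0 to 2 counts in every library and did not pass the filter on low counts. None had an adjusted p under 0.05 with an absolute log2 fold change over 1 in edgeR's quasi-likelihood test (adjusted p 0.116 to 0.928), in a comparison that called 2 of 12620 genes (0.0158%). At an unadjusted p under 0.05, 13 members were higher in shRBM10 (34.2%, against 15.7% of all genes tested) and 1 was lower (2.63%, against 8.60%). The groups did not overlap in 11 members that were higher (28.9%, against 13.8%) and in 3 that were lower (7.89%, against 16.2%). The log2 fold change was above 0 in 27 members (71.1%, against 51.6% of all genes tested) and below 0 in 11. 6 members combined an unadjusted p under 0.05 with a log2 fold change over 1, as did 10.1% of all genes. The median log2 fold change was 0.19 over the members and 0.03 over all genes tested. DESeq2 called 3 members, all higher in shRBM10, where it called 3.64% of all genes higher and 1.00% lower.

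**Figure D1:**
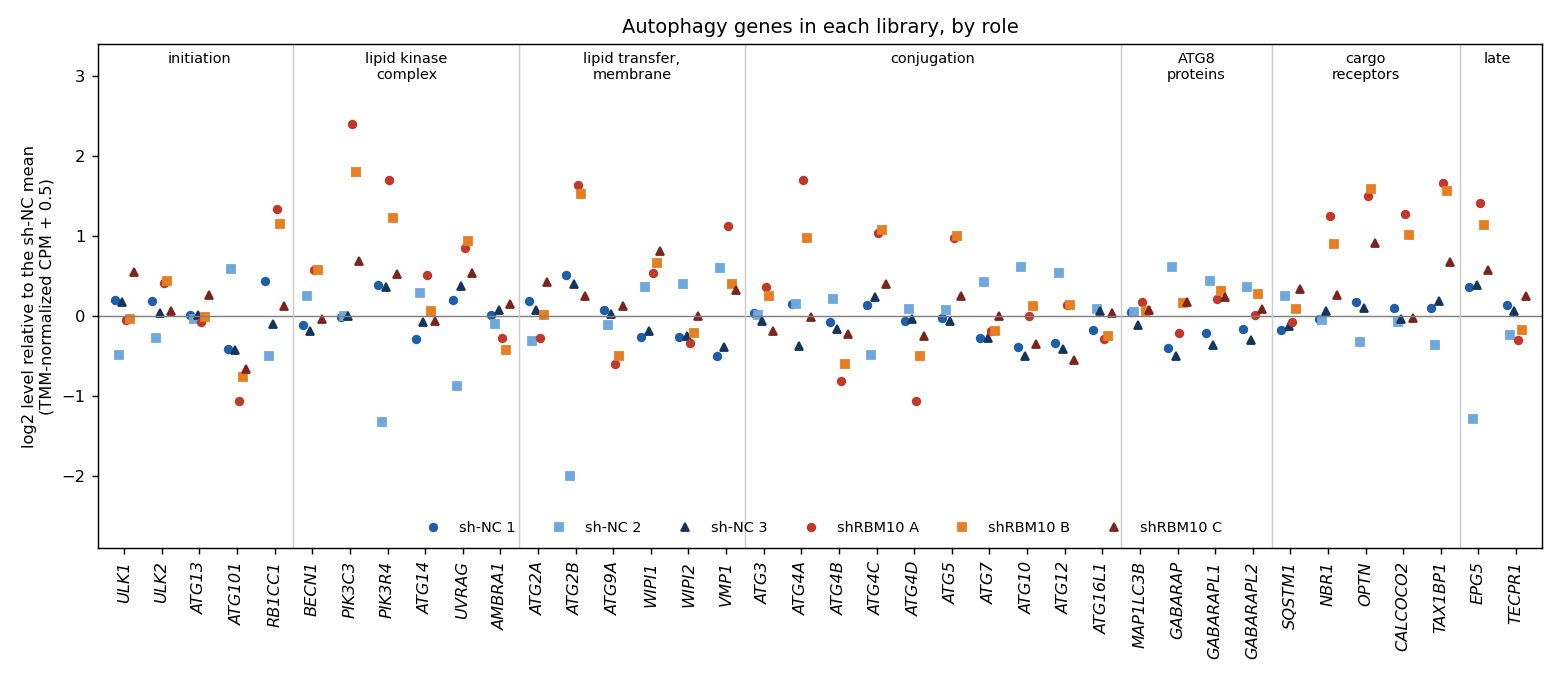
Level of each of the 38 tested autophagy genes in the 6 libraries, as the log2 ratio of TMM-normalised CPM + 0.5 to the mean of the sh-NC libraries + 0.5 (vertical axis), with genes grouped by role along the horizontal axis. Blue points are sh-NC libraries and red to orange points shRBM10 libraries. Libraries A and B lie above all sh-NC points for NBR1, OPTN, CALCOCO2 and TAX1BP1, while library C lies closer to sh-NC, and sh-NC replicate 2 is far below the others for ATG2B, PIK3R4 and EPG5.

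The shRBM10 libraries differed among themselves. Of the 13 members higher at an unadjusted p under 0.05, library C had the lowest shRBM10 level in 12, and sh-NC replicate 2 had the lowest sh-NC level in 9. The 13 were chosen by these same values, and the matching shares over all genes were not computed. The median log2 level of the members relative to the sh-NC mean was 0.31, 0.28 and 0.22 in libraries A, B and C, beside 0.05, 0.01 and 0.03 for all genes tested. Without library A or without library B, 4 members were higher at an unadjusted p under 0.05 (all genes 5.64% and 7.95%), and PIK3C3, OPTN and TAX1BP1 were among the 4 both times. Without sh-NC replicate 2, 11 members were higher (28.9%, against 11.6% of all genes) and 2 were lower (all genes 12.7%). PIK3C3, OPTN and TAX1BP1 had an unadjusted p under 0.05 whichever library was left out.

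Initiation depends on ULK1 or its relative ULK2, both protein kinases, held in a complex with ATG13, ATG101 and RB1CC1 (FIP200, the scaffold of the complex). 1 of these 5 genes was higher at an unadjusted p under 0.05 and 1 was lower, and their median log2 fold change was 0.18. RB1CC1 was at 19.4, 9.91 and 13.2 CPM in the sh-NC libraries and 36.7, 32.0 and 15.5 in libraries A to C, a log2 fold change of 0.98 ± 0.38 (SE, adjusted p = 0.176). Libraries A and B lay above all sh-NC libraries and library C lay among them. RB1CC1 had 37.6% GC, and its log2 fold change was 0.29 without the GC dependence and 0.11 without the dependence on GC content and length, both with an unadjusted p over 0.05. ATG101, which stabilises ATG13, had the opposite sign, with 96.2, 192 and 95.0 CPM in the sh-NC libraries and 60.9, 75.7 and 80.6 in libraries A to C (log2 fold change −0.82 ± 0.31 SE, adjusted p = 0.174). All shRBM10 libraries were below all sh-NC libraries, and sh-NC replicate 2 was the highest library. Without that replicate the log2 fold change of ATG101 was −0.48 (adjusted p = 0.180). ULK1 (0.18), ULK2 (0.33) and ATG13 (0.06) had overlapping groups and an adjusted p of 0.456 or more.

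In the lipid kinase complex the catalytic subunit PIK3C3 (VPS34), which makes phosphatidylinositol 3-phosphate, had the largest log2 fold change of all members. Of the 6 genes of the complex, 5 had a log2 fold change above 0, and 3 were higher at an unadjusted p under 0.05 with groups that did not overlap. The level of PIK3C3 (gene ID 5289, chr18:41955206-42087830 on the plus strand of GRCh38, GENCODE 29) was 4.84, 4.92 and 4.91 CPM in the sh-NC libraries and 28.0, 18.3 and 8.21 in libraries A to C, or 4.89 ± 0.0451 CPM for sh-NC (SD, n = 3) against 18.2 ± 9.92 for shRBM10 (SD, n = 3). The sh-NC libraries were nearly equal in CPM, on 98, 66 and 100 counts and with the lower TMM factor of replicate 2. Every shRBM10 library was above every sh-NC library, library A the highest and library C the lowest. The log2 fold change was 1.89 ± 0.42 (SE, adjusted p = 0.130), and DESeq2 gave an adjusted p of 0.00162, with 0.00162 to 0.502 over all alternatives. PIK3R4 (VPS15), the regulatory subunit bound to PIK3C3, was at 16.5, 4.70 and 16.3 CPM in the sh-NC libraries and 41.8, 29.8 and 18.2 in libraries A to C. Its log2 fold change of 1.25 ± 0.48 (SE, adjusted p = 0.175) became 0.78 (adjusted p = 0.193) without sh-NC replicate 2, the lowest library by far.

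UVRAG, which replaces ATG14 in the form of the complex that acts on endosomes and late autophagosomes, was at 13.8, 6.26 and 15.6 CPM in the sh-NC libraries and 21.8, 23.2 and 17.5 in libraries A to C (log2 fold change 0.80 ± 0.36 SE, adjusted p = 0.202). The groups did not overlap, and without sh-NC replicate 2 the log2 fold change was 0.42 (adjusted p = 0.268). The scaffold BECN1 (Beclin 1) had 39.1, 50.3 and 37.2 CPM in the sh-NC libraries and 63.2, 63.3 and 41.1 in libraries A to C (log2 fold change 0.41 ± 0.26 SE, adjusted p = 0.325), with library C among the sh-NC libraries. ATG14, which directs the kinase to the site where autophagosomes form, and AMBRA1, a regulator that binds BECN1, had log2 fold changes of 0.20 (adjusted p = 0.638) and −0.16 (adjusted p = 0.665) and overlapping groups.

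**Figure D2:**
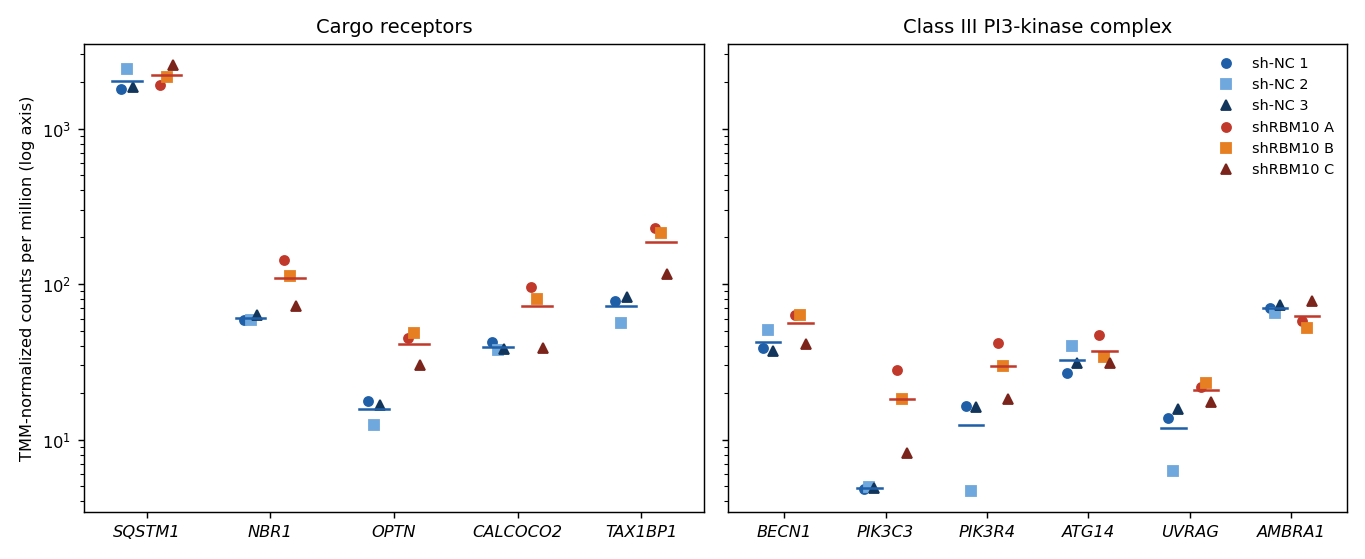
TMM-normalised CPM on a log axis for the 5 cargo receptors (left) and the 6 genes of the class III phosphatidylinositol 3-kinase complex (right), 1 point a library, with horizontal lines at the group means (n = 3). OPTN, TAX1BP1, NBR1, PIK3C3, PIK3R4 and UVRAG have every shRBM10 point above every sh-NC point, and SQSTM1, by far the most abundant, has overlapping groups.

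Among the genes of lipid transfer and membrane supply only WIPI1, a reader of phosphatidylinositol 3-phosphate on the forming membrane, was higher at an unadjusted p under 0.05. It was at 7.80, 12.3 and 8.30 CPM in the sh-NC libraries and 14.0, 15.3 and 17.1 in libraries A to C, a log2 fold change of 0.71 ± 0.29 (SE, adjusted p = 0.186). WIPI1 was the single member of the 13 in which library C had the highest level, and the groups did not overlap. ATG2B, a lipid transfer protein, had the largest log2 fold change of this role and the widest spread, with 4.89, 0.447 and 4.47 CPM in the sh-NC libraries and 11.2, 10.3 and 3.97 in libraries A to C (log2 fold change 1.35 ± 0.67 SE, adjusted p = 0.231). The level in sh-NC replicate 2 rested on 6 counts, against 99 and 91 in replicates 1 and 3, and library C was below these. Without replicate 2 the log2 fold change was 0.77 (adjusted p = 0.272). Its paralog ATG2A had a log2 fold change of 0.08 (adjusted p = 0.847), the lipid scramblase ATG9A of −0.29 (adjusted p = 0.459), and WIPI2 of −0.18 (adjusted p = 0.662), all with overlapping groups. VMP1, a scramblase of the endoplasmic reticulum, had 43.4, 93.6 and 46.7 CPM in the sh-NC libraries and 134, 81.1 and 76.7 in libraries A to C (log2 fold change 0.67, adjusted p = 0.252), and a log2 fold change of 1.02 (adjusted p = 0.116) without sh-NC replicate 2, which had the highest sh-NC level of this gene. VMP1 had 38.6% GC, and its log2 fold change was −0.10 without the GC dependence and −0.16 without the dependence on GC content and length.

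The conjugation genes had a median log2 fold change of −0.06, with 4 of 10 above 0. The ATG4 family, cysteine proteases that trim ATG8 proteins before conjugation and release them from membranes, divided into a pair on each side. ATG4A was at 8.88, 8.87 and 5.99 CPM in the sh-NC libraries and 26.9, 16.1 and 7.89 in libraries A to C (log2 fold change 1.10 ± 0.43 SE, adjusted p = 0.177), with library C among the sh-NC libraries. ATG4C was at 4.2, 2.53 and 4.52 CPM in the sh-NC libraries and 8.27, 8.45 and 5.12 in libraries A to C (log2 fold change 0.95 ± 0.34 SE, adjusted p = 0.170), and its groups did not overlap. ATG4B, the member of the family with the broadest activity on ATG8 proteins, was at 88.0, 107 and 82.6 CPM in the sh-NC libraries and 52.6, 61.0 and 79.1 in libraries A to C (log2 fold change −0.53 ± 0.24 SE, adjusted p = 0.208). ATG4D was at 45.7, 50.6 and 46.4 CPM in the sh-NC libraries and 22.6, 33.6 and 39.8 in libraries A to C (log2 fold change −0.57 ± 0.26 SE, adjusted p = 0.209). In ATG4B and ATG4D every shRBM10 library was below every sh-NC library, although neither had an unadjusted p under 0.05. ATG4A and ATG4C had transcripts of 42.5% and 34.8% GC, and ATG4B and ATG4D of 60.9% and 64.8%. After removal of the dependence of each library on GC content, the log2 fold changes were 0.52, 0.34, −0.20 and −0.21 in the same order, each with an unadjusted p over 0.05.

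ATG5, the protein to which ATG12 is attached, was at 17.4, 18.7 and 16.9 CPM in the sh-NC libraries and 35.2, 36.0 and 21.1 in libraries A to C (log2 fold change 0.80 ± 0.28 SE, adjusted p = 0.166). No shRBM10 library was as low as any sh-NC library, and library C was the nearest. ATG5 had 38.8% GC, and its log2 fold change was 0.09 (adjusted p = 0.816) without the GC dependence. The E1-like enzyme ATG7 (−0.12), the E2-like enzymes ATG3 (0.16) and ATG10 (−0.06), the ubiquitin-like ATG12 (−0.05) and ATG16L1 (−0.16) had an adjusted p of 0.653 or more and overlapping groups.

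ATG16L1, which places the ATG12-ATG5 conjugate on the membrane, is shown by sequence because exon 8 separates its main transcripts, whose shares are described here. Exon 8 of 18 lies at chr2:233273721-233273777 on the plus strand of GRCh38, inside the coding region, and its 57 bases equal 19 codons in length, so that skipping it keeps the reading frame. The RefSeq transcript NM_030803 contains exon 8 and NM_017974 lacks it, and the first exons of the pair also start at different positions. The exon is given from 5′ to 3′ in capitals, with 12 bases of each neighbouring exon in lower case, from the GENCODE 29 transcript.
ATG16L1 exon 8: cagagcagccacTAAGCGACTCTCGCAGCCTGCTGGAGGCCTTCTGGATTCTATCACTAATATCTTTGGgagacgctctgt
The estimated counts of NM_030803 were 106, 83.0 and 97.0 for the sh-NC libraries and 251.2, 179.9 and 239.9 for libraries A to C. Those of NM_017974 were 586, 422 and 701 for the sh-NC libraries and 331, 465 and 546 for libraries A to C. The transcript with exon 8 therefore made up 15.3%, 16.4% and 12.2% of the pair with the control shRNA and 43.15%, 27.9% and 30.5% with the shRNA against RBM10. The means were 14.6% ± 2.22 (SD, n = 3) and 33.85% ± 8.16 (SD, n = 3). Every shRBM10 library was above every sh-NC library in this share, while the log2 fold change of the whole gene was −0.16 (adjusted p = 0.653). The pair was singled out after its values had been seen, and its percentages are a description. NM_030803 and NM_017974 are each listed at a pair of placements with equal estimated counts in every library, and the counts above are their sums. Across all genes, edgeR's test of transcript usage gave ATG16L1 an adjusted Simes p of 1 with each placement of a transcript kept apart, and its F-test gave an adjusted p of 0.0774. In that form the equal counts entered the test as if from separate transcripts. With the placements of each transcript summed, the adjusted Simes p was again 1 and that of the F-test 0.230, rank 84 of 8205 genes, and leaving out single libraries gave 0.126 to 1.

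**Figure D3:**
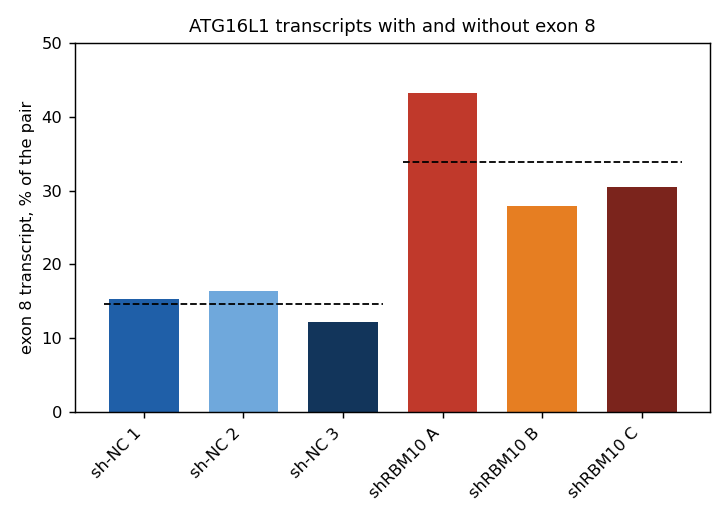
Share of the ATG16L1 transcript with exon 8 in the sum of the transcripts with and without it, in percent of their estimated counts, 1 bar a library, with dashed lines at the group means. The sh-NC libraries lie between 12.2% and 16.4% and the shRBM10 libraries between 27.9% and 43.15%.

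Transcript usage was tested in 29 members, and none had an adjusted Simes p under 0.05 or an adjusted p under 0.05 in the F-test, in a comparison that called 8 of 8348 genes (0.0958%). At an unadjusted Simes p under 0.05 there were 229 genes, of which AMBRA1 was the single member (adjusted p = 1). A minor AMBRA1 transcript, XM_024448606, had 14.2, 16.4 and 16.7 estimated counts with the control shRNA and was listed at 0 in libraries A to C. BECN1, which followed, ATG16L1 and RBM10 itself had an adjusted Simes p of 1 as well.

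The ATG8 proteins are the ubiquitin-like tags of the autophagosome membrane and the docking sites of the cargo receptors. The 4 tested genes had log2 fold changes between 0.06 and 0.26, and none had an unadjusted p under 0.05. MAP1LC3B (LC3B) was at 110.2, 110.1 and 99.0 CPM in the sh-NC libraries and 120.0, 112 and 113 in libraries A to C (log2 fold change 0.11 ± 0.20 SE, adjusted p = 0.736). The groups did not overlap, yet the libraries of both groups lay close together. The near-identical copy MAP1LC3B2 may share reads with it. GABARAPL1 was at 69.3, 109 and 62.6 CPM in the sh-NC libraries and 93.1, 99.5 and 94.6 in libraries A to C (log2 fold change 0.26, adjusted p = 0.518). Without sh-NC replicate 2, its highest library in CPM, the log2 fold change was 0.46 (adjusted p = 0.170). GABARAP and GABARAPL2 had log2 fold changes of 0.06 (adjusted p = 0.919) and 0.13 (adjusted p = 0.737).

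The median log2 fold change of 0.87 of the cargo receptors was the highest of all roles, as it was in 15 of 16 alternative fits, the exception being the removal of the GC dependence, where the late steps were higher. All 5 were above 0, and 4 of them were higher at an unadjusted p under 0.05. OPTN, optineurin, a ubiquitin-binding receptor in the removal of mitochondria and bacteria (gene ID 10133, chr10:13099449-13138308 on the plus strand of GRCh38), was at 17.8, 12.4 and 16.8 CPM in the sh-NC libraries and 45.3, 48.2 and 30.1 in libraries A to C, or 15.7 ± 2.83 CPM for sh-NC (SD, n = 3) against 41.2 ± 9.72 for shRBM10 (SD, n = 3). All shRBM10 libraries were above all sh-NC libraries. Its log2 fold change was 1.39 ± 0.28 (SE, adjusted p = 0.116), the smallest p of the members, and DESeq2 gave an adjusted p of 0.00233 (0.00233 to 0.477 over all alternatives). TAX1BP1, a receptor for protein aggregates and bacteria (gene ID 8887, chr7:27739331-27844564 on the plus strand of GRCh38), was at 77.5, 56.0 and 82.6 CPM in the sh-NC libraries and 230.1, 213 and 116 in libraries A to C. Libraries A and B were close to each other, library C was lower, and all were above sh-NC. The log2 fold change was 1.37 ± 0.30 (SE, adjusted p = 0.129), with a DESeq2 adjusted p of 0.00639 (0.00639 to 0.502 over all alternatives).

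NBR1, a receptor that works with SQSTM1 on protein aggregates, was at 58.9, 58.4 and 63.3 CPM in the sh-NC libraries and 144, 113 and 72.7 in libraries A to C (log2 fold change 0.87 ± 0.27 SE, adjusted p = 0.155). The sh-NC libraries were close together and all shRBM10 libraries lay above them. CALCOCO2 (NDP52), a receptor for bacteria and mitochondria, was at 42.4, 37.4 and 38.5 CPM in the sh-NC libraries and 96.1, 80.4 and 39 in libraries A to C (log2 fold change 0.86 ± 0.32 SE, adjusted p = 0.172). Libraries A and B were above sh-NC, and library C lay among the sh-NC libraries. SQSTM1 (p62), the receptor whose protein level is widely used as a readout of autophagic flux, was at 1788, 2407 and 1842 CPM in the sh-NC libraries and 1919, 2138 and 2554 in libraries A to C (log2 fold change 0.13 ± 0.29 SE, adjusted p = 0.785), and its groups overlapped.

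Of the genes of late steps, EPG5, a tether between autophagosomes and lysosomes, was at 14.6, 4.32 and 14.9 CPM in the sh-NC libraries and 31.0, 25.5 and 17.1 in libraries A to C (log2 fold change 1.11 ± 0.45 SE, adjusted p = 0.183). The groups did not overlap, and without sh-NC replicate 2, the lowest library, the log2 fold change was 0.65 (adjusted p = 0.198). TECPR1, another factor in the fusion of these vesicles, had a log2 fold change of −0.05 (adjusted p = 0.900).

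The members' log2 fold changes followed GC content. Across the 38 tested members, Spearman's rho between the log2 fold change and the GC content of the longest transcript was −0.621, beside −0.602 across 12343 genes, and −0.0529 over the members once the GC dependence of each library was removed. Genes share the libraries and are not independent replicates. All 13 members higher at an unadjusted p under 0.05 had a GC content under 50%, and ATG101, which was lower, had 59.8%. The median GC content was 46.6% over the tested members and 48.8% over all genes tested, so most would be expected under 50%. Without that dependence, 6 members were higher (15.8%, against 9.82% of all genes) and 1 was lower (2.63%, against 8.42%) at an unadjusted p under 0.05. The 6 were PIK3C3 (1.11, adjusted p = 0.147), OPTN (1.07, adjusted p = 0.101), TAX1BP1 (1.31, adjusted p = 0.127), NBR1 (0.54, adjusted p = 0.212), WIPI1 (0.75, adjusted p = 0.194) and ATG2A (0.43, adjusted p = 0.274). The lower gene was ATG3 (−0.48, adjusted p = 0.252). The other 8 of the 13 members had an unadjusted p over 0.05 here. Their log2 fold changes ran from 0.09 in ATG5 to 0.92 in EPG5, with 0.84 in PIK3R4, 0.66 in UVRAG and 0.45 in CALCOCO2. With the dependence on length removed as well, the log2 fold change of PIK3C3 was 0.77, also with an unadjusted p over 0.05. With the GC dependence alone removed, the median was 0.20 over the members and 0.54 over the cargo receptors, all 5 of which stayed above 0. Whether GC content had a part in the differences beyond these values was not tested.

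**Figure D4:**
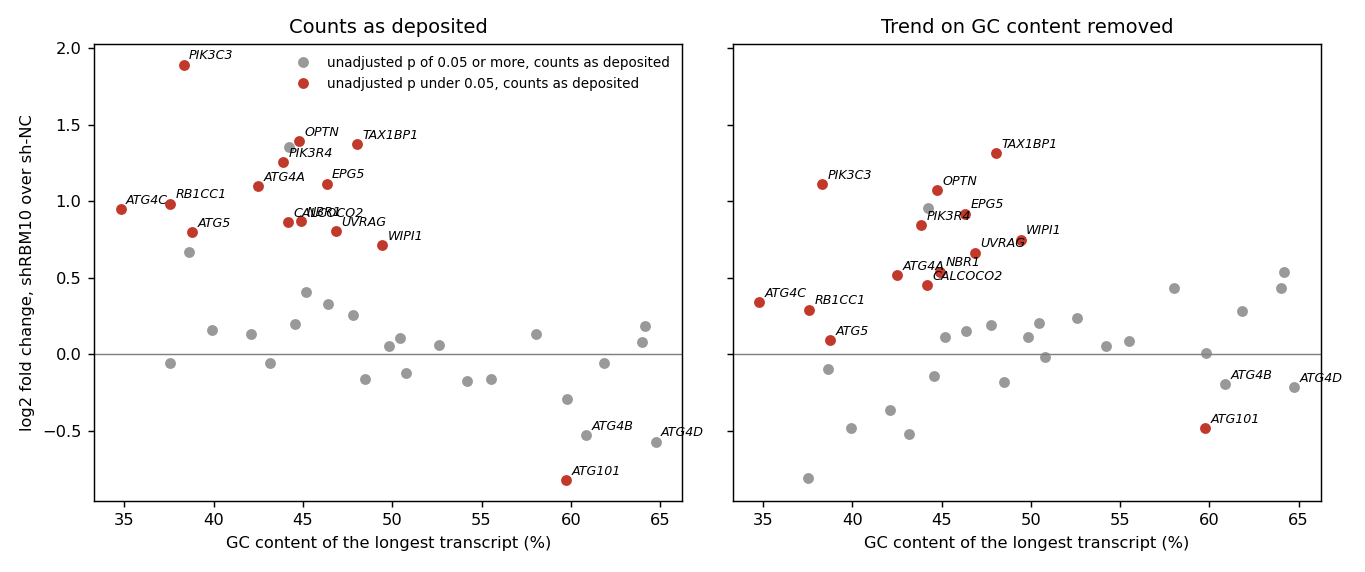
Log2 fold change of shRBM10 over sh-NC (vertical axis) against the GC content in percent of the longest transcript (horizontal axis) for the 38 tested members, from the counts as deposited (left) and after removal of the GC dependence of each library (right). Red points are the 14 members with an unadjusted p under 0.05 on the left. Points slope downward on the left (rho −0.621) and not on the right (rho −0.0529), where TAX1BP1, PIK3C3 and OPTN are the highest.

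Levels between genes were compared per transcript length, as TPM, a level scaled by length and library, in the 3 sh-NC libraries. SQSTM1 was the most abundant member at 843 ± 185 TPM (SD, n = 3), followed by GABARAP at 348 ± 16.3, and the groups of 3 values did not overlap. ATG101 at 112 ± 1.74 TPM and GABARAPL2 at 108 ± 15.2 overlapped, as did MAP1LC3B at 63.0 ± 20.6 and ATG4B at 57.4 ± 12.9. Of the other cargo receptors, TAX1BP1 was at 27.8 ± 13.4, NBR1 at 15.7 ± 5.43, CALCOCO2 at 13.3 ± 5.07 and OPTN at 5.78 ± 2.70 TPM, and the ranges of TAX1BP1, NBR1 and CALCOCO2 overlapped. The lowest tested members were ATG2B at 0.333 ± 0.272 and PIK3C3 at 1.03 ± 0.335 TPM, so the gene with the largest log2 fold change was among the least expressed of the machinery. MAP1LC3A was listed at 0, 0.15 and 0 TPM. The place of sh-NC replicate 2 among the sh-NC libraries could differ between CPM and TPM. In TPM it was the lowest of them for PIK3C3 (1.20, 0.64 and 1.24 in replicates 1 to 3) and for GABARAPL1 (57.1, 45.5 and 52.3). For ATG101 the TPM values were close together (111, 114 and 112).

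A motif bound by TFEB and related regulators of lysosomal and autophagy genes, TCACGTG, was looked for on both strands of the RefSeq promoters (GRCh38.p14), each from 250 bases before to 50 after the start of a gene. 34 of the 39 members matched 42 promoters, and 2 of these (4.76%) held the motif, beside 1303 of 35116 promoters (3.71%). The windows around both matches are shown with the motif in capitals, 5′ to 3′ on the strand of the gene (in ATG14 as its reverse complement), from chr14:55411835-55411861 and chr3:112561965-112561991, both on the minus strand.
ATG14: aacaaaatccCACGTGActggctctcc
ATG3: ctttctcacgTCACGTGccgggagagt
Neither gene was among those with an unadjusted p under 0.05, with log2 fold changes of 0.20 and 0.16.

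Other genes of the pathway, 87 in 5 groups chosen for function, gave 85 tested genes. At an unadjusted p under 0.05, 21 were higher (24.7%, against 15.7% of all genes) and 8 were lower (9.41%, against 8.60%), and the median log2 fold change was 0.11. The groups did not overlap in 25 higher genes (29.4%, against 13.8% of all genes) and 13 lower ones (15.3%, against 16.2%). None of the 85 genes was called by edgeR. DESeq2 called 10 of them, all higher, where it called 3.64% of all genes higher and 1.00% lower. Of 23 upstream kinases and nutrient sensors, 4 were higher (17.4%, against 15.7% of all genes) and 6 lower (26.1%, against 8.60%). With the GC dependence removed, 3 of the 23 were higher (all genes 9.82%) and 2 were lower (all genes 8.42%), so the excess of lower genes was not kept. Of 11 partners of the kinase complexes 3 were higher and 0 lower, and of 12 other core proteins 4 were higher and 1 lower. Of 20 receptors for mitochondria and endoplasmic reticulum 6 were higher and 1 lower, and of 19 factors of fusion with the lysosome 4 were higher and 0 lower.

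TP53INP1, which binds ATG8 proteins and responds to p53, had the smallest p, at 1.09, 0.745 and 0.638 CPM in the sh-NC libraries and 8.77, 5.21 and 2.82 in libraries A to C (log2 fold change 2.75 ± 0.47 SE, adjusted p = 0.0894). All shRBM10 libraries were above sh-NC, on 10 to 22 counts with the control shRNA and 54 to 157 with the shRNA against RBM10. TP53INP1 was called by DESeq2 (adjusted p = 4.01e-05), by edgeR with a filter of at least 1 count in all libraries together (2.74, adjusted p = 0.0411), and with the GC and length dependence removed (1.94, adjusted p = 0.0456), and its adjusted p was 4.01e-05 to 0.452 over all alternatives. ATG9B, the paralog of ATG9A, was at 0.969 to 1.83 CPM over the sh-NC libraries and 3.49 to 7.10 over libraries A to C (log2 fold change 1.69 ± 0.39 SE, adjusted p = 0.134). RETREG1 (FAM134B), an ER-phagy receptor, was at 1.27 to 2.47 CPM over the sh-NC libraries and 3.97 to 10.3 over libraries A to C (log2 fold change 1.78 ± 0.42 SE, adjusted p = 0.134). 2 further ER-phagy receptors and 1 mitophagy receptor were in the same set, which held 8 genes chosen by p with an absolute log2 fold change over 1. Over all 20 tested receptors for mitochondria and endoplasmic reticulum, the median log2 fold change was −0.04, with 8 genes above 0 and 12 below 0. CCPG1 had a log2 fold change of 1.37 ± 0.38 (SE, adjusted p = 0.153) and SEC62 of 1.20 ± 0.35 (SE, adjusted p = 0.153). BNIP3L (NIX), the mitophagy receptor, was at 21.5 to 23.1 CPM over the sh-NC libraries and 31.1 to 53.1 over libraries A to C (log2 fold change 1.03 ± 0.27 SE, adjusted p = 0.146). VPS41, a subunit of the HOPS tether, was at 8.12 to 14.6 CPM over the sh-NC libraries and 18.5 to 55.7 over libraries A to C (log2 fold change 1.61 ± 0.41 SE, adjusted p = 0.144), and SESN1, an inhibitor of mTORC1 signalling, at 1.38 to 2.31 CPM over the sh-NC libraries and 2.67 to 7.26 over libraries A to C (log2 fold change 1.49 ± 0.42 SE, adjusted p = 0.153). SESN2, a paralog of SESN1 outside this set, went the other way (log2 fold change −0.90, adjusted p = 0.153), with every shRBM10 library below every sh-NC library. In all 8 genes of the set every shRBM10 library was above every sh-NC library, which their choice by p and fold change favours. Without the GC dependence, their log2 fold changes ran from 0.34 (BNIP3L, adjusted p = 0.336) to 2.10 (ATG9B, adjusted p = 0.128).

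**Figure D5:**
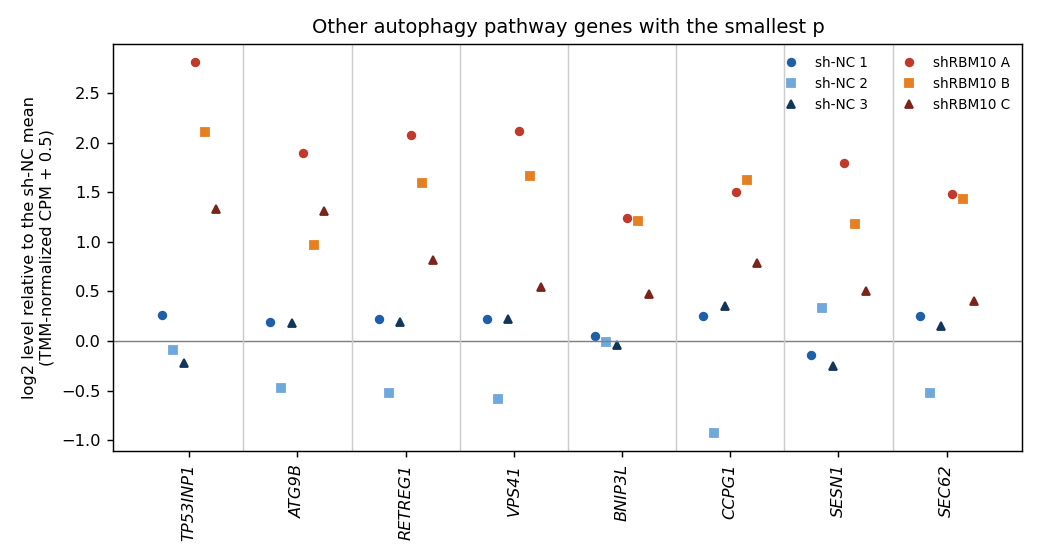
Level of the 8 other pathway genes with the smallest p and an absolute log2 fold change over 1, as the log2 ratio of TMM-normalised CPM + 0.5 to the mean of the sh-NC libraries + 0.5, for each library. Every shRBM10 point lies above every sh-NC point of its gene, and library A or B is highest in each.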

How the data were processed

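The authors deposited a gene table (16306 genes) and a transcript table (76563 RefSeq transcripts) that hold estimated counts, FPKM, TPM and normalised counts per library. Sequencing was done by BGI-Tech. The labels name the build hg38, and the aligner, counter and annotation are not given in the sources used here. Of the authors' estimated counts, 87.5% in the gene table and 41.1% in the transcript table were whole, and all were rounded. The authors' TPM values were used only within the sh-NC libraries. The other 33 per-library columns and the 8 columns of group means in each table were not used. The protocol text of the labels also speaks of retinas and of a pair of library kits without assigning them.

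Counts were normalised by TMM and tested with edgeR's quasi-likelihood test (version 4.0.16, with limma 3.58.1 under R 4.3.3) over the 12620 genes that filterByExpr kept, using all 6 libraries, no covariate and Benjamini-Hochberg adjustment. Adjusted p-values are from this test unless another is named. A call needed an adjusted p under 0.05 together with a log2 fold change beyond 1 in either direction. The SE was taken as the absolute log2 fold change over the square root of F. Transcript usage was tested with diffSpliceDGE (Simes p per gene). Tested members had 6 to 48850 counts a library, so counting error is largest in the lowest of them. Exons, GC content and coordinates are from GENCODE 29 on GRCh38, matched by symbol (97.8% of genes tested), and GC dependence was removed as offsets from a lowess curve (span 0.3). Alternatives were DESeq2 1.42.0, limma-voom, other normalisations and filters, the GC correction, and leaving out each library. The joint GC and length correction, the block by column letter and the summing of transcript placements were added after the data had been seen. Scripts were tested on simulated data.

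Members, roles, gene lists and tests were chosen with earlier results of these data known. Values per library are given for members with an unadjusted p under 0.05, members whose groups do not overlap and the member of each role with the largest absolute log2 fold change. BECN1, VMP1 and SQSTM1 fall outside this rule, and their values per library were added after they had been seen. For other pathway genes they are given for the 8 with the smallest p among those past an absolute log2 fold change of 1. For transcript usage, the 3 members with the smallest Simes p are named.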

Additional observations from a re-analysis of the deposited data

How the results depend on the processing

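No log2 fold change followed here reversed with an adjusted p under 0.05. DESeq2 called 574 genes and 3 members (PIK3C3, OPTN and TAX1BP1), and the correction for GC content and length, added after the data had been seen, 105 genes and 1 member (OPTN, 1.08, adjusted p = 0.0437). TP53INP1, not called over all libraries, was called by DESeq2, with this correction and with the filter of at least 1 count. RBM10 was called by DESeq2 and without sh-NC replicate 2. edgeR without a scaling beyond library size called 0 genes (2 with TMM) and gave medians of 0.33 for the members and 0.27 for the other pathway genes, where the median of all genes was 0.16 in place of 0.03 and 32 members were above 0 in place of 27, upper-quartile scaling gave the members 0.23, and the filter of at least 1 count in all libraries together called 31 genes. limma-voom had 3 members lower at an unadjusted p under 0.05. With the GC dependence removed, 6 members were higher, and of the other pathway genes 3 were lower, with a median of 0.15. With GC and length removed, 8 members were higher at that p and 4 other pathway genes lower. The 8 were ULK1, ATG2A, WIPI1, SQSTM1, NBR1, OPTN, TAX1BP1 and EPG5, while ATG3 was lower (−0.40). SQSTM1 had a log2 fold change of 0.51 and ULK1 of 0.46 here, against 0.13 and 0.18 in the main comparison. The share of all genes at that p was not computed for this fit or for limma-voom, so these counts cannot be set against it. The causes of these differences were not tested.

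Leaving out each library in turn gave 0 to 23 genes called, 4 to 11 members higher and 0 to 4 lower, and medians of the members between 0.14 and 0.30. The other pathway genes gave 13 to 25 higher, 3 to 11 lower and medians between 0.033 and 0.13. The lowest counts of members came without library A or B, and the highest count of genes called without sh-NC replicate 2. In transcript usage, 0 members were called under every alternative, while the genes called numbered 43 by the F-test, 44 by the F-test with placements summed (added after the data had been seen), 0 with at least 10 counts in every library and 5 to 12 without single libraries.

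Over 16 alternatives, 16 of the 47 genes followed had a log2 fold change of the other sign at least once, none of them a member with an unadjusted p under 0.05 in the main comparison. The labels do not pair the libraries, and only the column letters A to C recur in both groups. With the letter as a replicate block, added after the data had been seen, edgeR called 861 of 12620 genes. Among them were RBM10 (−1.25, adjusted p = 0.0112), TP53INP1 (2.66, adjusted p = 0.000146) and 6 members, all of these 6 higher (PIK3C3, PIK3R4, ATG2B, OPTN, TAX1BP1 and EPG5, adjusted p 0.00671 to 0.0493). At an unadjusted p under 0.05, 14 members were higher and 1 lower, beside 13 and 1 without the block. The share of all genes at that p was not computed for the block fit, so these counts cannot be set against it. The deviations of same-lettered libraries from their group means correlated at 0.377 (A), −0.047 (B) and −0.322 (C) over the genes tested, and not every library correlated best with its own letter, so the letters were not taken as pairs. With 3 libraries a group, the smallest exact permutation p for a single value is 0.1. The control replicates differed in their dependence on transcript length and the shRBM10 libraries in their dependence on GC content. Their part in the values of single members was not tested beyond the corrections above.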
